A study of Mus musculus with 16 samples.

Results

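The potassium channel genes of the mouse proximal aorta are described here in 16 single-cell RNA libraries. Of the 31055 genes listed in the count matrices, 99 had a symbol starting with Kcn, the prefix of the genes for potassium channel subunits and their partners. The 61 with at least 50 unique molecular identifiers (UMIs, each standing for 1 captured RNA molecule) over all deposited barcodes were kept as members. The other 38 fell short of that number, and 6 of them were at 0. Kcng3, with 49 UMIs, was just outside the limit and Kcnj11, with 50, just inside it. By role, the members were 22 pore-forming subunits of voltage-gated channels, 8 inward rectifiers, 9 two-pore-domain channels, 6 calcium- or sodium-activated channels, 13 auxiliary subunits or interacting proteins, and 3 non-coding transcripts.

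The study compared mice in which Smad3, a transcription factor of TGF-β signaling, was deleted after birth in vascular smooth muscle cells (VSMCs) with controls that kept the gene. All mice were 129S6/SvEv males that carried Myh11-CreER, a tamoxifen-activated recombinase expressed in smooth muscle from a Y-linked transgene, and all received tamoxifen from 6 weeks of age. Controls were Smad3+/+, and the mutants, named Smad3SmKO, had both Smad3 alleles floxed. At 10 weeks after deletion, at 16 weeks of age, 2 control and 2 Smad3SmKO libraries were made, and at 18 weeks, at 24 weeks of age, 5 and 7. The tissue was the thoracic aorta from root to arch, dissociated for 30 or 60 min and sorted for live nucleated cells. All libraries of 10 weeks were dissociated for 60 min, and those of 18 weeks for 30 or 60 min. At 10 weeks both control libraries and neither Smad3SmKO library came from mice with a GFP tracer, so tracer and genotype cannot be told apart at that time.

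The libraries held 50858 cells within the limits on genes, UMIs and mitochondrial share, from 631 to 6497 per library, with a median of 4528 to 21884 UMIs per cell. Cells were classed by their own marker counts: 8648 VSMCs (at least 5 Myh11 UMIs and more Myh11 than Dcn), 33954 fibroblasts (the reverse), 1226 endothelial cells (at least 2 UMIs of Pecam1 and Cdh5 together) and 2946 leukocytes (at least 2 of Ptprc and Tyrobp). The 7 VSMC markers were all detected in the VSMCs of every group, with sums of 37661 to 76503 CPM, the UMIs of a gene per 1000000 UMIs of the class in that library. There were 20 to 1675 VSMCs in a library. 5157 barcode sequences occurred in more than 1 library, the largest pair being control replicates 4 and 5 at 18 weeks with 3507, and 346 of the kept cells, 58 of them VSMCs, had a barcode that was deeper in another library. Leaving out those cells, a setting chosen after seeing the data, changed no call or count of calls reported here. Smad3 itself stood at 5.04 ± 0.410 (SD, n = 2) and 6.58 ± 1.89 (n = 2) CPM in control and Smad3SmKO VSMCs at 10 weeks, and at 7.08 ± 2.97 (n = 5) and 9.52 ± 4.72 (n = 7) at 18 weeks. Counts at the 3′ end of a transcript that has lost internal exons do not check a deletion, and the sources used here do not place the floxed exons against the counted ends. The paper reports significantly lower Smad3 in Smad3SmKO aortas, as protein by immunoblot and as RNA by qPCR relative to Myh11.

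Potassium channels set the resting voltage of arterial smooth muscle. When they open, potassium leaves the cell, the membrane hyperpolarizes, voltage-gated calcium channels close and the muscle relaxes. The large-conductance calcium-activated (BK) channel, voltage-gated Kv channels, ATP-sensitive inward rectifiers and two-pore-domain leak channels all take part in this brake, whereas leukocytes and endothelial cells use other members of the family.

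Together the 61 members held 208564 of 508775009 UMIs, or 409.93 CPM. Within the classes they made up 535 CPM in VSMCs, 395 in fibroblasts, 256 in endothelium and 223 in leukocytes. All levels below are CPM per library and class. Since 3′ counting reads 1 end per molecule, they are not scaled by transcript length, and levels of different genes are comparable only as counted molecules. Kcnq1ot1 was among the highest members in each of the 4 classes, and the heat map of mean levels shows which other members led in each.

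**Figure D1:**
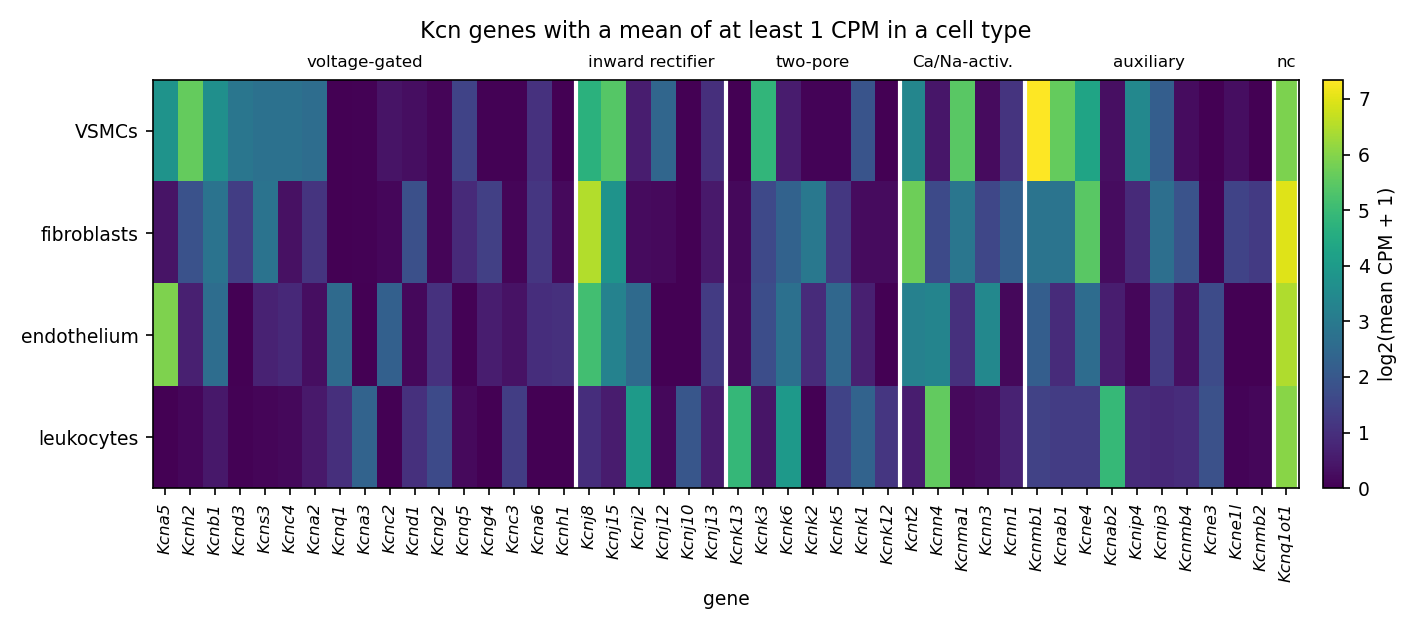
Mean level, as log2(mean CPM + 1) by color, of the potassium channel genes with a mean of at least 1 CPM in VSMCs, fibroblasts, endothelium or leukocytes, averaged over libraries with at least 10 cells of the class and grouped by role, with 1 such gene not shown. Kcnmb1 leads in VSMCs with 161 CPM and Kcnq1ot1 in fibroblasts with 125.

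VSMCs and fibroblasts of the same library were compared over 16 libraries, with the library as a block. Of 12124 genes tested, 72.1% were called at an adjusted p under 0.05, 33.7% higher and 38.4% lower in VSMCs, so a call between these cell types is the common outcome. 25 members passed the filter on low counts. Of these 14 were higher in VSMCs, 9 were lower, and Kcna6 and Kcns3 were not called. Of 10 voltage-gated subunits tested, 7 were higher and 1 lower. The 3 inward rectifiers split 2 and 1, the 5 auxiliary genes 3 and 2, and the 3 two-pore-domain and the 3 calcium- or sodium-activated channels 1 and 2 each. The single non-coding member tested was lower. Against endothelium (15 libraries, 7040 genes tested, 69.2% called) 5 of 8 tested members were higher in VSMCs (33.7% of all genes) and 2 lower (35.5%). Against leukocytes (16 libraries, 9196 genes, 78.2% called) 8 of 12 were higher (40.9% of all genes) and 4 lower (37.3%).

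**Figure D2:**
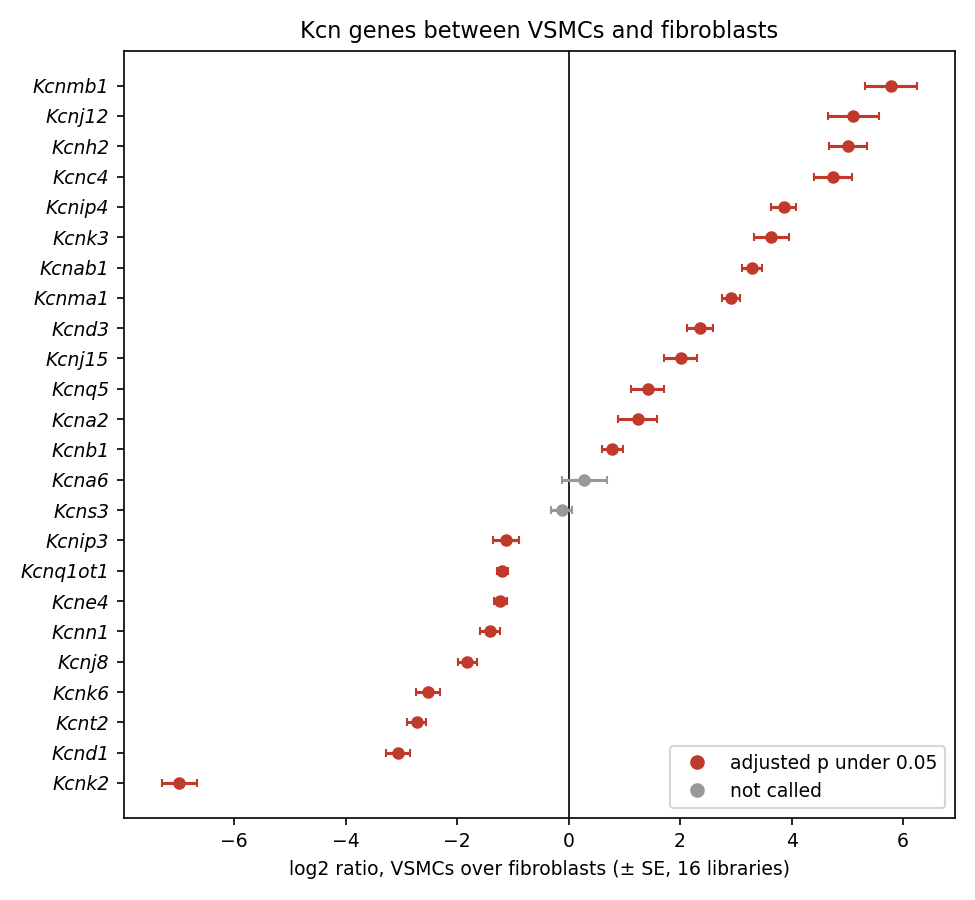
Log2 ratio of VSMCs over fibroblasts for 24 of the 25 tested potassium channel genes, with bars of 1 standard error from the edgeR fit over 16 libraries. Kcnmb1 is at 5.78 at one end and Kcnk2 at -6.98 at the other.

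Kcnmb1 had the highest mean VSMC level of the members, at 161 ± 25.1 (SD, n = 16), and Kcnma1 was at 43.0 ± 12.5. Kcnma1 encodes the pore of the BK channel and Kcnmb1 the smooth muscle β1 subunit that raises its calcium sensitivity. Kcnmb1 was at 185 and 177 in control and 178 and 171 in Smad3SmKO VSMCs at 10 weeks. At 18 weeks it was at 123, 145, 132.2, 164 and 184 in controls, and the 7 Smad3SmKO libraries had a lowest, median and highest value of 115, 168 and 192. The groups overlapped at both times. Kcnma1 was at 42.2 and 28.7 against 30.1 and 30.9 at 10 weeks. At 18 weeks it was at 45.4, 53.4, 52.3, 38.2 and 39.0 in controls and at 27.0, 43.8 and 76.6 (lowest, median, highest) in Smad3SmKO. For Kcnma1, too, the groups overlapped at both times. Kcnmb1 exceeded Kcnma1 in 16 of 16 VSMC libraries, with a median ratio of 4.00 (2.07 to 7.10).

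Against fibroblasts, Kcnmb1 was higher in VSMCs by a log2 ratio of 5.78 ± 0.47 (SE, adjusted p = 7.40e-10) and Kcnma1 by 2.91 ± 0.16 (adjusted p = 1.99e-12). The fibroblast level of Kcnmb1 was 1.88% of the VSMC level, inside the range of 1.33% to 8.14% over the 7 VSMC markers, whereas that of Kcnma1 was 16.9%, above that range. At least 1 Kcnmb1 UMI was found in 70.8% of VSMCs, 1.75% of fibroblasts and 0.849% of leukocytes. After each cell was thinned to 2000 UMIs the shares were 28.6%, 0.543% and 0.416%. The level of background RNA was not estimated. Over the 16 libraries the fibroblast level of Kcnmb1 ran from 0 to 40.3 CPM, with a median of 2.14. The median UMIs per cell had a middle value over libraries of 10846 in VSMCs, 10760 in fibroblasts and 6233 in leukocytes, and after thinning the fibroblast share was near that of leukocytes. Against endothelium the log2 ratios were 6.84 ± 0.33 for Kcnmb1 and 5.60 ± 0.26 for Kcnma1, and against leukocytes 6.75 ± 0.26 and 7.77 ± 0.28. In all endothelial cells Kcnmb1 had 12 UMIs and Kcnma1 8, and in all leukocytes 26 and 3. The size of these ratios is therefore uncertain. Kcnmb1 (chr11:33963013-33973641, plus strand, build GRCm38) lies within the span of Kcnip1 (chr11:33629339-33993152, minus strand), an auxiliary gene with 76 UMIs in all. The sources used here do not state how strand was counted. Kcnip1 had 31 UMIs in VSMCs and 39 in fibroblasts, where Kcnmb1 had 14633 and 1077. Pooled over cells, Kcnip1 was at 0.369 and 0.119 CPM and Kcnmb1 at 174 and 3.27, so both were higher in VSMCs. The part of Kcnmb1 molecules in the Kcnip1 counts was not tested.

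The 250 bases before the start of both BK genes are shown because both genes were higher in VSMCs than in each other class, while the sequences differ in base composition. Both are from RefSeq on GRCm38.p6, Kcnmb1 at chr11:33962763-33963012 on the plus strand and Kcnma1 at chr14:24004206-24004455 on the minus strand. The Kcnma1 stretch lies inside the annotated span of the gene (chr14:23289431-24014491). It thus precedes a RefSeq start within that span and not the outermost start. All letters are lower case because neither motif searched in them was found.
Kcnmb1: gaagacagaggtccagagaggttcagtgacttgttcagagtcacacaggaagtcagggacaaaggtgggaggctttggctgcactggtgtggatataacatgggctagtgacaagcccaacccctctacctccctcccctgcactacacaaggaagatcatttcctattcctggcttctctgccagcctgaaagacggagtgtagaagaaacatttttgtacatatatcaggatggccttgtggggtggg
Kcnma1: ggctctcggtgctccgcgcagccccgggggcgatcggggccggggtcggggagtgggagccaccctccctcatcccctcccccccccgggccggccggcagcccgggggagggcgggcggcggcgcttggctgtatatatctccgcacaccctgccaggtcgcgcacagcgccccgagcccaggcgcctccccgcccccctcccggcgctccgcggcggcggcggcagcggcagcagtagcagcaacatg
The Kcnmb1 stretch has 50.8% G and C and 1 CpG, and the Kcnma1 stretch 79.2% and 31, against medians of 52.4% and 6 over all promoters in the table. 46 of the 61 members matched a promoter entry. The motifs searched on both strands were CAGAC, a Smad-binding element, and TGGGAA, the core of the RBPJ site of Notch signaling, which can share up to 2 bases when they lie on opposite strands. CAGAC was in 60.9% of the 46 member genes and in 45.8% of all genes, and TGGGAA in 28.3% and 24.1%. A gene was counted if any of its promoter entries held the motif. The number of entries per gene was not matched between members and all genes, so these shares are not a like comparison. The CArG box, the serum response factor site of smooth muscle genes, was in 0 of the 46 members and in 1.62% of all genes.

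Among voltage-gated subunits, Kcnh2, which encodes the hERG-type channel of the heart, had the highest VSMC level at 48.0 ± 13.2 (SD, n = 16). It was at 39.8 and 33.5 against 38.1 and 41.6 at 10 weeks. At 18 weeks controls had 25.6, 68.0, 48.0, 72.8 and 60.8 and Smad3SmKO 38.3, 52.0 and 62.2 (lowest, median, highest). The Smad3SmKO range lay inside that of the controls. Kcnh2 was higher in VSMCs than in fibroblasts by a log2 ratio of 5.01 ± 0.35 (adjusted p = 6.86e-11), and than in leukocytes by 7.42 ± 0.24. Only 4 Kcnh2 UMIs were counted in all leukocytes. Kcnc4, a fast Kv3-type channel, was higher than in fibroblasts by 4.74 ± 0.34, and Kcnd3, an A-type channel, by 2.36 ± 0.23. Kcnq5, an M-current-type channel, was higher by 1.42 ± 0.29. Kcnd1, another A-type subunit, was lower in VSMCs by a log2 ratio of -3.06 ± 0.21 (adjusted p = 7.54e-11).

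Kcna5, the Kv1.5 subunit, was the member of highest mean level in endothelium after Kcnq1ot1. In 15 endothelial libraries its lowest, median and highest levels were 22.9, 45.3 and 202. VSMCs were lower than endothelium by a log2 ratio of -2.62 ± 0.31 (adjusted p = 1.84e-07). That call was lost, with a log2 ratio of -0.79 and an adjusted p of 0.0619, when cells that met more than 1 gate were counted in each.

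Auxiliary genes other than Kcnmb1 divided by class. Kcnab1, a cytosolic β subunit of Kv1 channels, was at 48.3 and 38.6 against 44.3 and 41.9 in VSMCs at 10 weeks. At 18 weeks it was at 47.3, 52.1, 71.2, 48.7 and 34.2 in controls and at 31.1, 47.7 and 74.2 (lowest, median, highest) in Smad3SmKO. The groups overlapped at both times. Kcnab1 was higher in VSMCs than in fibroblasts by a log2 ratio of 3.29 ± 0.17 (adjusted p = 1.16e-12), and Kcnip4, a calcium-binding partner of A-type channels, by 3.86 ± 0.22. Kcne4, a single-span subunit that damps Kv currents, was lower by -1.22 ± 0.12, and Kcnip3 by -1.12 ± 0.23. Kcnab2, a second Kv1 β subunit, was a leukocyte gene here, at 12.1, 27.0 and 60.9 over 16 libraries, and VSMCs were lower by a log2 ratio of -7.10 ± 0.21. Only 18 Kcnab2 UMIs were counted in all VSMCs.

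Among inward rectifiers, Kcnj15 (Kir4.2) had the highest mean VSMC level, at 41.6 ± 25.8 (SD, n = 16). It was higher in VSMCs than in fibroblasts by a log2 ratio of 2.01 ± 0.30 (adjusted p = 4.08e-06), than in endothelium by 2.69 ± 0.32 and than in leukocytes by 6.08 ± 0.24. Only 9 Kcnj15 UMIs were counted in all leukocytes. UMIs of Kcnj15 were found in 29.5% of VSMCs, 4.90% of fibroblasts and 0.306% of leukocytes, or in 9.91%, 1.64% and 0.175% after thinning to 2000 UMIs. Kcnj12 (Kir2.2), at a low level of 2.07 over all VSMCs, was higher than in fibroblasts by 5.11 ± 0.46. Kcnj8 (Kir6.1), the pore of the vascular ATP-sensitive channel, was a fibroblast gene, with a lowest, median and highest level of 25.2, 89.8 and 155. In VSMCs it averaged 24.7 ± 11.6 (SD, n = 16), a log2 ratio of -1.81 ± 0.17 (adjusted p = 5.72e-09). Against endothelium Kcnj8 was not called (-0.34 ± 0.27, adjusted p = 0.277). The 90 cells with UMIs of both Vtn and Higd1b, markers of pericytes, had a pooled Kcnj8 level of 346. Abcc9, the regulatory SUR2 subunit that pairs with Kcnj8, was lower in VSMCs than in fibroblasts by a log2 ratio of -1.12 ± 0.17 and higher than in endothelium by 0.67 ± 0.21, where Kcnj8 was not called.

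VSMCs, fibroblasts and leukocytes differed in their two-pore-domain leak channels. Kcnk3 (TASK-1) was higher in VSMCs than in fibroblasts by a log2 ratio of 3.64 ± 0.31 (adjusted p = 1.90e-09), at a mean of 27.6 ± 24.5 (SD, n = 16). Kcnk2 (TREK-1) was at 1.49, 4.66 and 18.2 (lowest, median, highest) in fibroblasts, and only 3 UMIs of it were counted in all VSMCs. The pooled fibroblast level was 188 times the VSMC level, with a 95% exact Poisson interval of 64.2 to 909, which like all counting intervals here covers counting error only. Kcnk13 (THIK-1), a microglia and macrophage channel, was at 5.17, 28.9 and 50.7 in leukocytes and had 2 UMIs in all VSMCs, a pooled ratio of 1172 (325 to 9679). Kcnk6 was lower in VSMCs than in fibroblasts by -2.53 ± 0.22 and than in leukocytes by -4.49 ± 0.23.

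Of the calcium- and sodium-activated channels other than Kcnma1, Kcnt2 (Slick) was a fibroblast gene at 13.4, 54.8 and 72.2, and VSMCs were lower by a log2 ratio of -2.73 ± 0.17 (adjusted p = 9.84e-12). Kcnn1 (SK1) was lower in VSMCs by -1.41 ± 0.18. Kcnn4 (IK1), the intermediate-conductance channel of lymphocytes and macrophages, was at 10.9, 5.28, 6.69 and 5.17 in the 4 leukocyte libraries of 10 weeks and between 27.1 and 152 in the 12 of 18 weeks. The 10-week values rest on 8 UMIs in controls and 5 in Smad3SmKO. The levels of the times did not overlap. Time, batch and the cells that make up the leukocyte class cannot be told apart in this contrast, which was not tested.

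Kcnq1ot1, a nuclear RNA antisense to Kcnq1 that silences imprinted neighbours, held 52811 of the member UMIs. It was at 56.7, 115 and 230 in fibroblasts, 41.7, 88.9 and 161 in endothelium, and 20.3, 65.8 and 118 in leukocytes. In VSMCs it averaged 58.3 ± 35.0 (SD, n = 16) and was lower than in fibroblasts by a log2 ratio of -1.19 ± 0.10 (adjusted p = 8.54e-10). Kcnq1 had 96 UMIs in all, so with strand unstated the counts of both genes are uncertain where they overlap.

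VSMCs were also split by 2 pairs of subset markers. The Notch3/Enpep subset held 526 cells with at least 2 UMIs of that pair and more of it than of the other, and the Ptprz1/Tes subset held 4417 cells by the same rule. In 13 libraries with enough of both, 22.8% of 6366 genes were called (11.4% higher and 11.4% lower in Notch3/Enpep cells). Of 10 members tested, 1 was higher and 1 lower. Kcnj15 was at 0, 4.67 and 13.4 (lowest, median, highest) in Notch3/Enpep cells and at 23.2, 51.2 and 103 in Ptprz1/Tes cells. The ranges did not overlap, and the Notch3/Enpep level was the lower one in 13 of 13 libraries. The log2 ratio was -3.48 ± 0.22 (adjusted p = 7.45e-12). Kcnk3 was at 8.33, 32.7 and 147 in Notch3/Enpep cells and at 0, 14.0 and 26.6 in Ptprz1/Tes cells. It was higher in Notch3/Enpep cells in 13 of 13 libraries, although the ranges overlapped, by a log2 ratio of 1.46 ± 0.19 (adjusted p = 1.17e-06). The 10 digestion stress genes moved with the subset. In 10-week controls they summed to 6813 to 8206 CPM in Notch3/Enpep cells and 2805 to 3049 in Ptprz1/Tes cells, and in 10-week Smad3SmKO to 4930 to 8366 and 1169 to 1546. At 18 weeks they summed to 4841 to 15513 and 3047 to 7884 in controls, and to 5967 to 12612 and 1638 to 7804 in Smad3SmKO. The ranges of the subsets were separate at 10 weeks and overlapped at 18 weeks. The 6 pericyte markers, of which Notch3 is also a gate gene, summed to 339 to 869 and 326 to 762 in 10-week controls, and to 485 to 1233 and 348 to 398 in 10-week Smad3SmKO. At 18 weeks their sums were 378 to 811 and 278 to 542 in controls, and 558 to 3253 and 332 to 788 in Smad3SmKO. The part of either list in the result was not tested.

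**Figure D3:**
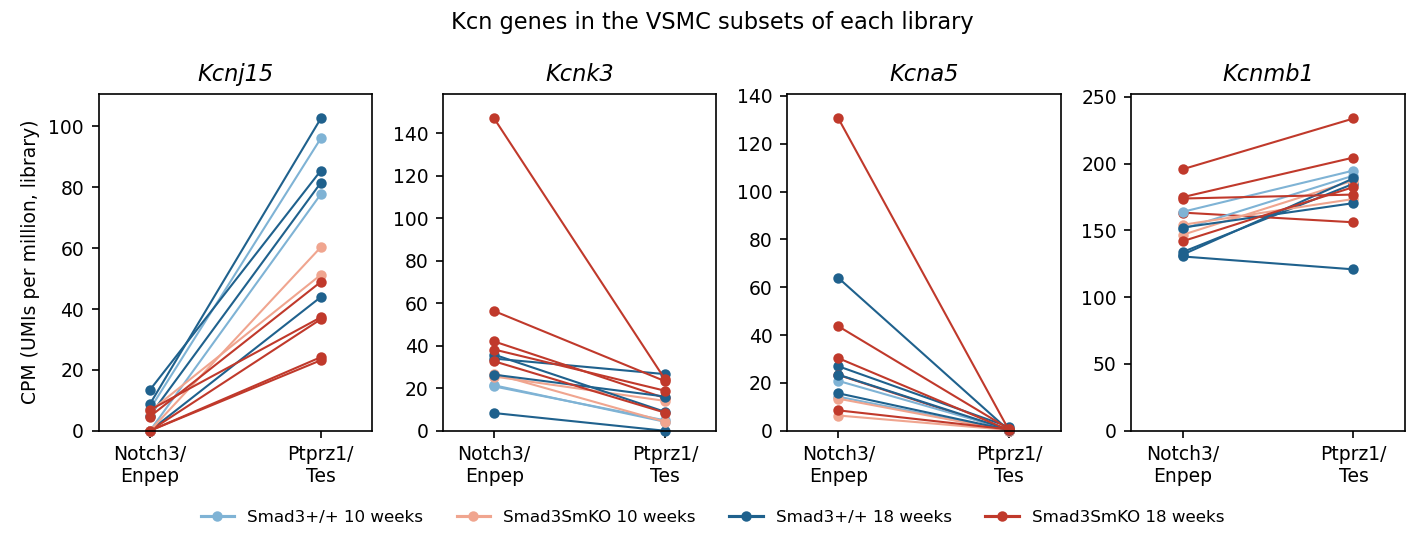
Levels (CPM) of Kcnj15, Kcnk3, Kcna5 and Kcnmb1 in the Notch3/Enpep and Ptprz1/Tes VSMCs of the same 13 libraries, each line joining 1 library. Kcnj15 is lower in Notch3/Enpep cells in 13 of 13 libraries, and Kcnk3 and Kcna5 are higher in 13 of 13.

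The BK subunits were not called between the subsets with the filter on low counts. Kcnmb1 had a log2 ratio of -0.19 ± 0.07 (adjusted p = 0.058) and Kcnma1 of -0.13 ± 0.13 (adjusted p = 0.560). Kcnh2, Kcnab1, Kcne4, Kcnj8 and Kcnq1ot1 had adjusted p-values of 0.71 or more. Without that filter 7 of 51 members were lower and 7 higher in Notch3/Enpep cells, where 13.3% of 18040 genes were called. Kcnmb1 was then called, at -0.29 ± 0.09 (adjusted p = 0.0216). The members added with the largest ratios were Kcna5 at 5.63, Kcnip1 at 4.67, which had 1 UMI in all Ptprz1/Tes cells, and Kcnc4 at -3.80. Kcna5 was at 6.38, 23.3 and 130.5 in Notch3/Enpep cells and at 0, 0.27 and 1.57 in Ptprz1/Tes cells, higher in 13 of 13 libraries. Its level in all VSMCs at 18 weeks was 2.39 to 65.4 after 30 min of dissociation and 1.66 to 7.36 after 60 min. Notch3/Enpep cells made up 11.4% to 65.2% of the VSMCs in the 30-min libraries and 5.33% to 14.9% in the 60-min libraries of that time. The part of either in the VSMC level was not tested.

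Kcnj15 had the largest ratio between the subsets with the filter on low counts and Kcna5 the largest without it, and the 250 bases before their starts are given with the motif letters in capitals. Both are from RefSeq on GRCm38.p6, Kcnj15 at chr16:95257308-95257557 on the plus strand and Kcna5 at chr6:126535556-126535805 on the minus strand.
Kcnj15: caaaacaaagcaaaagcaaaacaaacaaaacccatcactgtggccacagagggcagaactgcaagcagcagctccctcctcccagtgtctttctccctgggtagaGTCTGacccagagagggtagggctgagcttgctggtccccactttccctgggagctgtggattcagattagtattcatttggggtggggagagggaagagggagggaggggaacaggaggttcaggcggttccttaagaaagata
Kcna5: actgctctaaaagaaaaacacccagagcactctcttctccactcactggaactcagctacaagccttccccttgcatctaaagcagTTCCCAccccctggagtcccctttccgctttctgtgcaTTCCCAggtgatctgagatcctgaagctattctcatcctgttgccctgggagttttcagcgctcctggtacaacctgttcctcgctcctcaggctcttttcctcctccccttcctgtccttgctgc
The Kcnj15 stretch holds 1 CAGAC match, written on the opposite strand as GTCTG, 145 bases before the start. The Kcna5 stretch holds 2 TGGGAA matches, written as TTCCCA, at 164 and 126 bases. Such letters are common: 42.2% of all promoters hold CAGAC and 21.6% hold TGGGAA. A match is a description of the sequence and shows no binding.

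The effect of the Smad3 genotype on VSMCs was tested at each time over 11711 genes, 22 of them members. At 10 weeks edgeR called 0 genes (0%), with 225 (1.92%) at an unadjusted p under 0.05, and DESeq2 called 1. No member was called by either, and 1 had an unadjusted p under 0.05. At 18 weeks edgeR called 4 genes (0.0342%), with 562 (4.8%) at an unadjusted p under 0.05, and DESeq2 called 8. Again 0 members were called by either tool, and 2 had an unadjusted p under 0.05. The members' median log2 ratio was -0.05 at 10 weeks and -0.07 at 18 weeks, against -0.01 over all genes at both times. For the difference of the effects between the times edgeR called 1 gene (0.00854%), with 302 (2.58%) at an unadjusted p under 0.05, and 0 members reached either limit. 39 members were not tested for low counts.

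**Figure D4:**
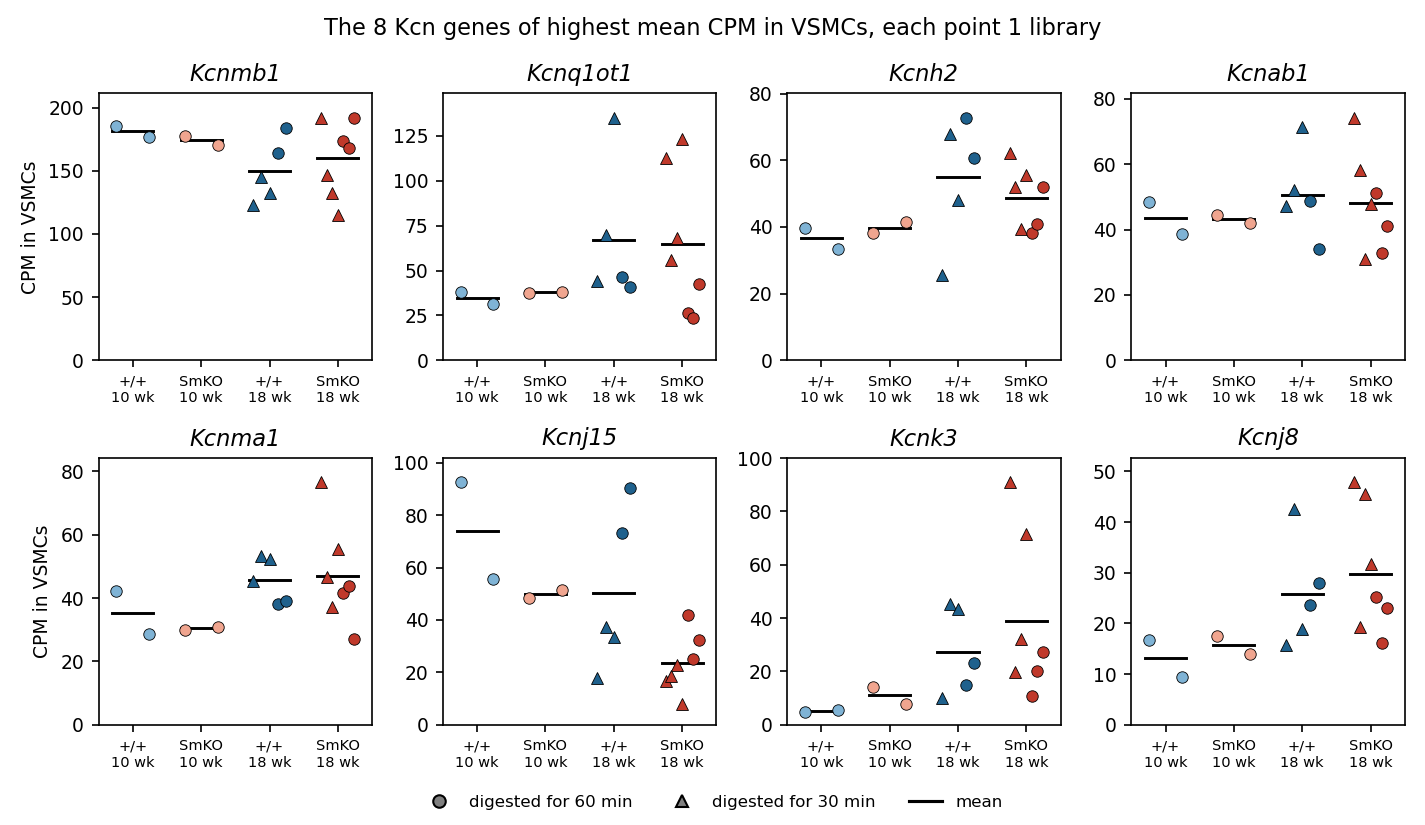
Levels (CPM) of the 8 potassium channel genes with the highest mean in VSMCs, with 1 point per library for Smad3+/+ and Smad3SmKO at 10 and 18 weeks, circles for 60 min and triangles for 30 min of dissociation, and a line at each group mean. The groups overlap for each gene at 18 weeks.

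Kcnj15 was the member with the smallest p. At 10 weeks it was at 92.6 and 55.6 in control VSMCs and at 48.4 and 51.4 in Smad3SmKO. At 18 weeks controls had 17.7, 37.2, 33.4, 73.1 and 90.4 and Smad3SmKO 16.8, 18.4, 22.7, 7.95, 42.0, 25.1 and 32.3. The groups did not overlap at 10 weeks and overlapped at 18. The log2 ratio was -0.53 ± 0.27 at 10 weeks (adjusted p = 1) and -1.12 ± 0.27 at 18 weeks (adjusted p = 0.612). The difference between the times was -0.58 ± 0.38 (adjusted p = 1). Without control replicate 1 of 18 weeks, which held 93 VSMCs, the log2 ratio was -1.56 with an adjusted p of 0.0297. Without the low-count filter it was -1.14 with an adjusted p of 0.00022.

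Dissociation time and subset makeup moved with Kcnj15. Control libraries of 18 weeks dissociated for 30 min had 17.7 to 37.2 and those for 60 min 73.1 to 90.4. Smad3SmKO libraries had 7.95 to 22.7 and 25.1 to 42.0. Within batches the ratio of Smad3SmKO to control was 1.16 in batch 1, 0.501 in batch 2, 0.214 in batch 3 and 0.307 in batch 6, and 0.673 in batch 4, which held all libraries of 10 weeks. The ratio was thus below 1 in all but batch 1. Some of these ratios rest on few cells. The Smad3SmKO library of batch 3 held 20 VSMCs and its control 253, and those of batch 2 held 54 and 46. Batch 5 held no control, so its libraries did not enter the fitted 18-week ratio. Ptprz1/Tes cells made up 13.0% to 61.6% of control and 15% to 62.3% of Smad3SmKO VSMCs at 18 weeks. Within Ptprz1/Tes cells alone, a setting chosen after seeing the data, the 18-week levels were 43.9, 81.5, 85.5 and 103 in 4 control libraries and 24.2, 36.7, 16.4, 48.9, 23.2 and 37.3 in 6 Smad3SmKO libraries. Only 1 Smad3SmKO library lay above the lowest control, and the log2 ratio was -1.44 ± 0.32 (adjusted p = 0.290).

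**Figure D5:**
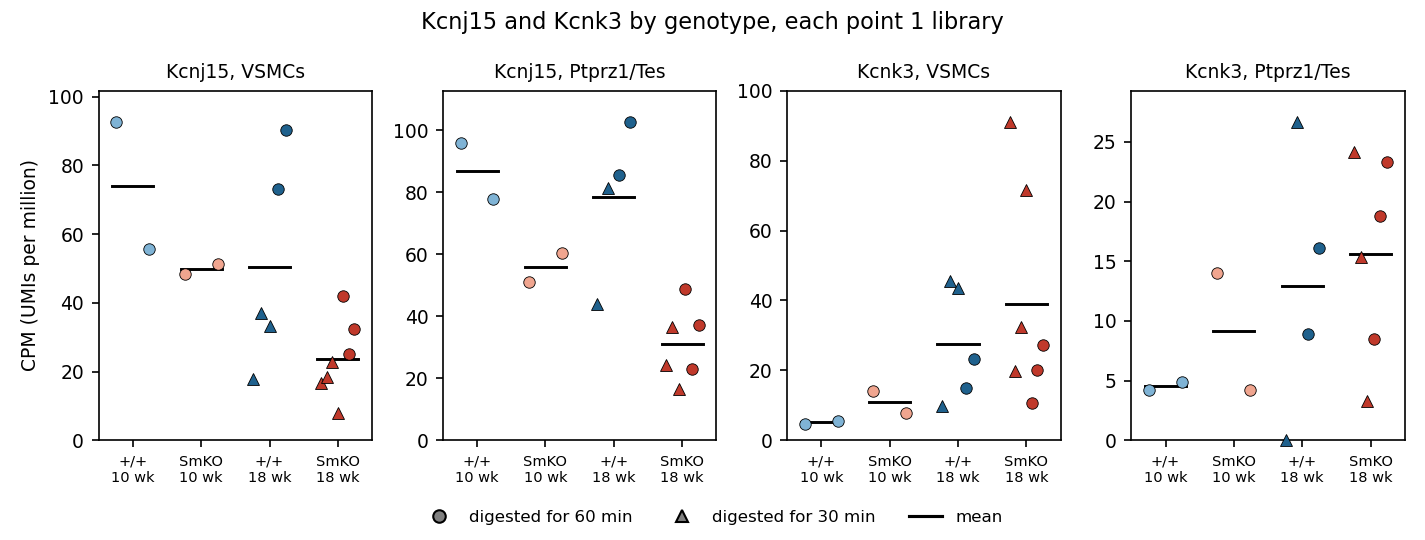
Levels (CPM) of Kcnj15 and Kcnk3 in all VSMCs and in Ptprz1/Tes VSMCs of each library, by genotype and weeks after deletion, with circles for 60 min and triangles for 30 min of dissociation and a line at each group mean. For Kcnj15 in all VSMCs the 60-min controls of 18 weeks, at 73.1 and 90.4, lie above the 60-min Smad3SmKO libraries, at 25.1 to 42.0. Of the latter only the library at 25.1 shared a batch with these controls.

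Kcnk3 had the smallest p at 10 weeks. It was at 4.78 and 5.54 in control VSMCs and at 14.2 and 7.78 in Smad3SmKO. At 18 weeks controls had 9.86, 45.5, 43.6, 14.8 and 23.3 and Smad3SmKO 90.9, 19.8, 32.3, 71.6, 10.7, 20.1 and 27.3. The groups did not overlap at 10 weeks and overlapped broadly at 18. The log2 ratio was 1.18 ± 0.43 at 10 weeks (adjusted p = 1) and 0.62 ± 0.32 at 18 weeks (adjusted p = 1.00). Without the low-count filter the 10-week adjusted p was 0.0213. At 10 weeks the 10 digestion stress genes summed to 3088 to 4790 in control and 1880 to 2143 in Smad3SmKO VSMCs, and the 6 fibroblast markers to 1916 to 2221 and 1487 to 1619. Their part in the result was not tested.

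The 3 members of smallest p also included Kcnip4 at 10 weeks and Kcna2, a Kv1 subunit, at 18 weeks. Kcnip4 was at 25.1 and 11.3 against 10.0 and 13.7, with overlap and a log2 ratio of -0.61 ± 0.47 (adjusted p = 1). Kcna2 was at 0, 5.40, 13.1, 1.22 and 2.28 in 18-week controls and at 0.593, 2.39 and 31.1 (lowest, median, highest) in Smad3SmKO. The ranges overlapped, and the log2 ratio was 1.05 ± 0.49 (adjusted p = 1.00). For the BK subunits the 18-week ratios were 0.07 ± 0.13 for Kcnmb1 and 0.16 ± 0.17 for Kcnma1.

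In fibroblasts, which the deletion did not target, edgeR called 0 of 14343 genes at either time (0%), with 127 (0.885%) at 10 weeks and 350 (2.44%) at 18 weeks at an unadjusted p under 0.05, and DESeq2 called 1 and 3. For the difference between the times it called 0 (0%), with 126 (0.878%) at an unadjusted p under 0.05, and DESeq2 called 2. Of 34 members tested 0 were called by either tool. Kcnab1, Kcnk2 and Kcne1l, with log2 ratios of -0.64, -1.16 and -0.90, had an unadjusted p under 0.05 at 18 weeks. In endothelium 0 of 8094 genes (0%) and 0 of 6 members were called at either time, with 267 (3.3%) and 292 (3.61%) genes at an unadjusted p under 0.05, 284 (3.51%) for the difference, and 0 called by DESeq2. In leukocytes 0 of 8832 (0%) and 0 of 7 were called, with 276 (3.12%) and 139 (1.57%) at an unadjusted p under 0.05 and 306 (3.46%) for the difference. DESeq2 called 5 leukocyte genes at 10 weeks, 0 at 18 and 4 for the difference, no member among them.

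Other genes of the pathway were followed in a list of 26 calcium and excitability genes of smooth muscle and a list of 8 channel partners. Of 17 of the 26 tested against fibroblasts, 13 were higher in VSMCs (33.7% of all genes) and 2, Cacna1g and Itpr3, lower (38.4%). Between the VSMC subsets 14 were tested, of which 2 were higher and 2 lower, against 11.4% of all genes each way. Pln, the inhibitor of the sarcoplasmic calcium pump, was higher in Notch3/Enpep cells by a log2 ratio of 3.80, as was Trpc1, a cation channel, by 0.76. Cacna1d, an L-type calcium channel, was lower by -1.03 and Ano1, a calcium-activated chloride channel, by -0.96. Of the 8 partners only Abcc9 was tested between classes or subsets, and it was lower in Notch3/Enpep cells by -1.41 ± 0.19. None of the 19 excitability genes tested in VSMCs was called for genotype by edgeR at either time.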

How the data were processed

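UMI counts per gene and barcode were deposited by the authors as 16 matrices, made with Cell Ranger (version 6 in the submitters' processing notes, 4.0.0 in the matrix headers) on mm10. The counts were used as deposited, without further scaling. The kept cells lay strictly between 600 and 6000 detected genes and between 2000 and 50000 UMIs, with a mitochondrial share below 25%. Cells meeting the gates of more than 1 class were left out, and no doublet caller was run. UMIs were summed per library and class, with at least 10 cells. Genotype was tested with edgeR 4.0.16 (quasi-likelihood test, TMM, filterByExpr) in R 4.3.3 on 4 groups plus batch within 18 weeks. Classes were compared with the library as a block, and p-values were adjusted over all genes tested by Benjamini-Hochberg. The call threshold was an adjusted p under 0.05. DESeq2 1.42.0, other filters, other gates and leaving out each library were alternatives. The study describes its cells as coming from 16 mice, the number of libraries, so each library was taken as 1 animal.

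Members chosen for their levels were the 8 of highest mean in VSMCs and the 3 highest in each other class. The 3 of smallest p in VSMCs at each time were added. Levels were given by library, as lowest, median and highest, or as mean and SD. Results of 1 member and of 1 further cell gate are not reported here. For classes and subsets the 6 called members with the largest ratio in each direction were named. The members and lists were chosen with earlier results of these data known. The fits were tested on simulated data. There the genotype fit recovered 92% of changes of 2-fold in VSMCs, 64% in endothelium and 48% in leukocytes. For the genotype fit, changes were simulated at the later time only, in genes above the median count and without batch effects. The shares therefore do not give the recovery for members of low count or for the time with fewer libraries. They may also overstate the recovery in the measured libraries, which differ by batch.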

Additional observations from a re-analysis of the deposited data

Results flagged for a closer look

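Kcnq1ot1 in fibroblasts was at 201 CPM in control replicate 3 at 18 weeks, where the other 4 controls lay between 115 and 140. Kcna5 in endothelium was at 202 in Smad3SmKO replicate 1 at 18 weeks, where the other 5 libraries lay between 40.9 and 68.9. Such a distant library occurred in 2 of 38 groups examined, and chance gives about 5% of groups.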

How the results depend on the processing

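Libraries were not paired by replicate number, which names libraries only and does not mark shared animals, litters or days across genotypes. Batch, which does tie libraries of both genotypes, is a term of the genotype fit. Of 1116 alternative values of 42 named log2 ratios, 1112 kept their direction and side of the threshold, 0 reversed, 3 passed the threshold and 1 lost it. Without the low-count filter 1 of 56 members was called for VSMC genotype at 10 weeks and 1 of 56 at 18 weeks (0.255% and 0.558% of all genes). Against fibroblasts 21 of 61 were higher and 25 lower (49.2% of all genes called either way). Against endothelium 22 of 58 were higher and 12 lower (42.9%), and against leukocytes 27 of 60 were higher and 20 lower (58.6%). In Notch3/Enpep cells 7 of 51 were higher and 7 lower (13.3%). Counting cells of more than 1 gate in each gave 9 higher than endothelium and 2 lower in Notch3/Enpep cells, and all deposited barcodes gave 2 for the latter. Leaving out 1 library gave 0 to 1 for VSMC genotype at 18 weeks and 1 to 2 lower in Notch3/Enpep cells, the 2 arising without control replicate 1 or Smad3SmKO replicate 2 of 18 weeks. The other 506 of 521 counts, the 21 higher than fibroblasts among them, stayed within 1.5 times. The 18-week Kcnj15 ratio ranged from -1.56 to -0.60, with -0.60 in 30-min and -1.56 in 60-min libraries. Among 60-min libraries only batch 6 held both genotypes, with 2 control libraries and 1 Smad3SmKO library. The ratio was -1.11 without shared barcodes (a setting added after seeing the data). Depth limits endothelium and leukocytes, with 10 or more leukocytes per library, and Smad3SmKO replicate 7 of 18 weeks with 3 endothelial cells was left out there.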

Other observations

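In the 90 cells with UMIs of both pericyte markers, Kcnj8 was at 346 and Kcnk3 at 88.3 CPM, against 21.5 and 15.8 over VSMCs. At least 1 Kcnj8 UMI was found in 64.4% of these cells, 36.5% of fibroblasts and 14.8% of VSMCs, and after thinning to 2000 UMIs in 37.9%, 14.1% and 3.81%. Kcna5 was at 37.0 in the same cells, whose 6 endothelial markers summed to 676 to 1770 CPM in 4 libraries, against 2456 to 4231 in endothelium, where Kcna5 was at 53.1 over all cells. The cells were pooled over libraries, so these are values with no test.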
